A study of Mus musculus with 8 samples.

Results

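Asparagine, glutamate and proline are amino acids that mammalian cells can make themselves, and a small set of enzymes links their synthesis to the tricarboxylic acid cycle. RNA-Seq counts of 9 such enzymes were examined in mouse embryonic fibroblasts (MEFs): Asns for asparagine, Aldh18a1 and Pycr1 for proline, the transaminases Gpt2, Got1 and Got2, the phosphoenolpyruvate carboxykinase Pck2, and Glul and Glud1 for glutamine and glutamate. These genes were chosen by function and from their normalized counts across the RHPS4 doses, with those counts already known, so their levels and changes are a description. Where one is said to have risen or to be called, this repeats the outcome of the fit across all genes and is no independent test. They are 9 of the 24460 genes in the count tables, and all 9 were among the 14296 genes that passed the filter on low counts.

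The study asked how RHPS4, a small molecule that binds G-quadruplexes (stacked structures of guanine-rich DNA), acts on mitochondria. Wild type MEFs were grown without RHPS4 (0 µM, 3 libraries), with 2 µM RHPS4 (3 libraries) or with 10 µM RHPS4 (2 libraries), all in medium that contained glucose, glutamine and pyruvate. The labels give 16 or 24 h of exposure and do not say which applies to the RNA-Seq libraries. They do not say either whether the libraries of a dose came from separate cultures, so p-values and errors measure the spread between these libraries, which may be technical.

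Total counts ran from 10455965 to 26688121 per library, and 3 counts, taken as the floor of detection, corresponded to 0.119 to 0.311 CPM (the count relative to library size, scaled by edgeR's TMM factors). Every enzyme of the group was far above that floor, with between 65 counts (Pycr1) and 7340 counts (Glud1) in a library. The share of counts from mtDNA, the mitochondrial genome, was 13.2 to 14.4% at 0 µM, 7.40 to 8.26% at 2 µM and 5.33 to 6.32% at 10 µM, and the TMM factors rose in the same order of doses, from 0.923 to 0.960 through 0.988 to 1.01 up to 1.09 to 1.10. The first 0 µM library stood apart from the other 2 of its group, at a chi-square of 15.4 and 20.2 per degree of freedom against 3.23 between those 2. All 9 fibroblast markers were present, with a summed level of 13960 to 14410 CPM at 0 µM, 12740 to 12970 CPM at 2 µM and 12380 to 12700 CPM at 10 µM. Of these markers Pdgfrb, a growth factor receptor of mesenchymal cells, fell between 0 and 10 µM, from 235.2 to 154.9 CPM (log2 fold change -0.60, SE 0.068, adjusted p = 0.000248 by edgeR's quasi-likelihood test). The summed markers of epithelial, endothelial and blood cells did not exceed 4.76, 5.47 and 9.59 CPM in any library, and the haemoglobin gene Hba-a1 had no count in any of the 8 libraries. In bulk RNA, fewer cells of a kind and less RNA per cell cannot be told apart.

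As background, Asns moves the amide nitrogen of glutamine onto aspartate to make asparagine. Transaminases pass amino groups between glutamate and the keto acids pyruvate and oxaloacetate, Aldh18a1 and Pycr1 turn glutamate into proline, and Glud1 and Glul interconvert glutamate with 2-oxoglutarate and with glutamine. Asns and several of the other genes are known targets of ATF4, a transcription factor of the integrated stress response, which binds C/EBP-ATF response elements as a dimer. Asns, Got1 and Glul proteins work mainly in the cytosol and the other 6 in mitochondria.

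The promoters are shown because the genes of the group differ in one sequence feature, which was not itself used to choose them. Several of the genes are known targets of ATF4, which binds this feature, so its share in the group is only a description. All 9 genes matched a RefSeq promoter (build GRCm38.p6, 250 bases before to 50 after the start site), and 4 of them (Asns, Pck2, Got1 and Pycr1) held the C/EBP-ATF response element TGATGNAAN on either strand, as did 1299 of 32851 mouse promoters (3.95%). Below are 160-base windows (150 bases before to 10 after the start) of these 4 genes and, for contrast, of Gpt2 and Aldh18a1, whose counts also rose at 10 µM and whose promoters held no match to it. Each is written 5′ to 3′ on the strand of its gene, and capitals mark the element, which lies on the opposite strand in Pck2 and Got1. The windows are chr6:7693200-7693359 (minus strand) for Asns, chr14:55540116-55540275 (plus) for Pck2, chr19:43524596-43524755 (minus) for Got1, chr11:120643739-120643898 (minus) for Pycr1, chr8:85492426-85492585 (plus) for Gpt2 and chr19:40588454-40588613 (minus) for Aldh18a1.
Asns: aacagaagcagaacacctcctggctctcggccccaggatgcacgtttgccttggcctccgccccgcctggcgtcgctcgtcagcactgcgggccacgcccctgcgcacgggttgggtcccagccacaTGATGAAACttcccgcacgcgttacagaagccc
Pck2: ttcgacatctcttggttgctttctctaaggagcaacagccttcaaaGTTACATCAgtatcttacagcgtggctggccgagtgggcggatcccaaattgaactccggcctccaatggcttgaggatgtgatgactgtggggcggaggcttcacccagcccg
Got1: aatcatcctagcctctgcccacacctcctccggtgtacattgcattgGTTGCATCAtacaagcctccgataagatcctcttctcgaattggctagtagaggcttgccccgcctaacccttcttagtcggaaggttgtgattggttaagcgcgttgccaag
Pycr1: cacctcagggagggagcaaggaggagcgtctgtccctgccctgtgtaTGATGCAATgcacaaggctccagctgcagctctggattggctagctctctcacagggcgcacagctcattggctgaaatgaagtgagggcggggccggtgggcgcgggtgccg
Gpt2: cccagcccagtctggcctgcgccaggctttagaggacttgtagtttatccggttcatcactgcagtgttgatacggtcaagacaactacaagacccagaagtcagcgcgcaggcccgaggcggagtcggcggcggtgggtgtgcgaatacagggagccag
Aldh18a1: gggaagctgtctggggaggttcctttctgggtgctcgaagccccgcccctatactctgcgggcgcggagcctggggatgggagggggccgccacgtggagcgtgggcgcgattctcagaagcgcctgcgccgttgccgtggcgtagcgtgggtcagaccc

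In Asns the element (TGATGAAAC) lay from -23 to -15 relative to the start site. The letters GTTACA, known as a second nutrient-sensing element of this gene, lay from -3 to 3. The GENCODE model of Asns, used for gene positions below, starts upstream of this RefSeq start site, at chr6:7693254. By that model both matches lie inside the gene. In Pck2 the element (TGATGTAAC, opposite strand) lay from -104 to -96 and overlapped a GTTACA match from -104 to -99. GTTACA was found in these 2 genes and in 8.25% of all promoters. Got1 (TGATGCAAC, opposite strand) and Pycr1 (TGATGCAAT) both held the element from -103 to -95. The cAMP response element TGACGTCA was found in 0 of the 9 promoters and in 1.79% of all promoters. A G-quadruplex motif, defined as 4 runs of at least 3 G with 1 to 7 bases between them, lay from -162 to -143 in Gpt2 on the opposite strand and from -17 to 5 in Pycr1, and 18.6% of all promoters held it. The GENCODE model of Pycr1 also starts upstream of its RefSeq start site, at chr11:120643769, and contains this G-quadruplex match. A match says only that these letters are present in the window, not that a factor binds or that a quadruplex forms there.

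**Figure D1:**
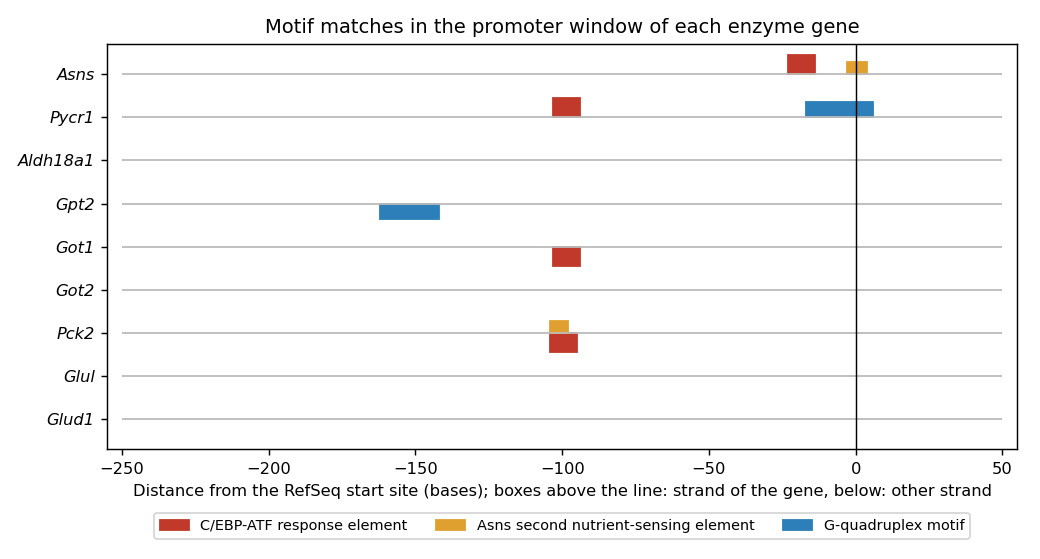
Position of the motif matches in the promoters of the 9 enzyme genes, with the distance from the RefSeq start site in bases on the horizontal axis. Boxes above a line are on the strand of the gene and boxes below it on the other strand: 4 genes hold the C/EBP-ATF response element, and Aldh18a1, Got2, Glul and Glud1 hold no match to any of the motifs.

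Asns, the asparagine synthetase, rose at 10 µM RHPS4. The gene lies on the minus strand at chr6:7675169-7693254 (GRCm38). Its level was 142.8, 120.7 and 123.5 CPM in the 0 µM libraries, 138.5, 137.9 and 141.7 CPM at 2 µM, and 287.8 and 287.3 CPM at 10 µM. Both 10 µM libraries were above all the others. The 2 µM libraries lay between the highest and the lowest of the untreated ones, the highest being the first 0 µM library, which stood apart across all genes. Between 10 and 0 µM the log2 fold change was 1.16 (SE 0.082), a fold of 2.23, compared with 1.05 (SE 0.082) between 10 and 2 µM and 0.11 (SE 0.075) between 2 and 0 µM.

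Both enzymes of proline synthesis rose at 10 µM as well. Aldh18a1, on the minus strand at chr19:40550257-40588463, encodes the synthase that converts glutamate to pyrroline-5-carboxylate. It was counted at 181, 171.5 and 176.7 CPM at 0 µM, 175.6, 171.4 and 169.3 CPM at 2 µM, and 316.8 and 339.1 CPM at 10 µM. The 0 and 2 µM libraries overlapped within a narrow range, and the 10 µM libraries were well above it. The log2 fold change of Aldh18a1 was 0.90 (SE 0.070), a fold of 1.86, between 10 and 0 µM and 0.93 (SE 0.070) between 10 and 2 µM, against -0.035 (SE 0.064) between 2 and 0 µM.

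Pycr1, on the minus strand at chr11:120635712-120643769, encodes a mitochondrial reductase that makes proline from pyrroline-5-carboxylate. Its level was the lowest of the group, at 6.75, 7.68 and 7.46 CPM at 0 µM, 7.23, 6.52 and 6.84 CPM at 2 µM, and 24.1 and 19.9 CPM at 10 µM. The 10 µM libraries differed from each other by more than the other libraries did, and both were above all of them. Pycr1 had a log2 fold change of 1.58 (SE 0.12), a fold of 2.98, between 10 and 0 µM, 1.68 (SE 0.12) between 10 and 2 µM, and -0.10 (SE 0.12) between 2 and 0 µM.

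Of the transaminases, Gpt2 rose at 10 µM and had the largest fold change of the group. This gene, on the plus strand at chr8:85492576-85527560, encodes the mitochondrial alanine transaminase. Its 0 µM libraries were at 70.7, 68.0 and 68.8 CPM, the 2 µM libraries at 69.3, 60.7 and 65.3 CPM, and the 10 µM libraries at 222.2 and 236.4 CPM. The 2 µM libraries overlapped the untreated ones and the 10 µM libraries did not. In log2 units the change was 1.73 (SE 0.077), a fold of 3.32, between 10 and 0 µM, 1.82 (SE 0.078) between 10 and 2 µM, and -0.087 (SE 0.072) between 2 and 0 µM.

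The aspartate transaminases Got1 (cytosolic, chr19:43499752-43524605, minus strand) and Got2 (mitochondrial, chr8:95864134-95888547, minus strand) were not called at any dose. Got1 was at 54.0, 49.8 and 52.5 CPM at 0 µM, 56.2, 51.9 and 49.7 CPM at 2 µM, and 74.8 and 71.0 CPM at 10 µM. Both 10 µM libraries were above all the others, at a fold of 1.40 over 0 µM (log2 0.49, SE 0.081) and 1.39 over 2 µM (log2 0.47, SE 0.081), so Got1 was not called at the minimum fold of 1.5. Between 2 and 0 µM its log2 fold change was 0.015 (SE 0.074).

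Got2 was at 153.7, 131.8 and 132.3 CPM at 0 µM, 151.9, 145.9 and 148.7 CPM at 2 µM, and 119.9 and 113.3 CPM at 10 µM. The 10 µM libraries were below all the others, and the highest value again came from the first 0 µM library. The log2 fold change was -0.25 (SE 0.085) between 10 and 0 µM, -0.35 (SE 0.086) between 10 and 2 µM, and 0.098 (SE 0.076) between 2 and 0 µM. With total counts in place of TMM the value between 10 and 0 µM was only -0.036. Of the 75-base stretches of Got2 transcripts, 35.2% also occur in other genes (Gm10874 and Got2-ps1), and 379 bp of its exons overlap the antisense gene Gm45760. Its level is therefore less certain than those of the others, since only uniquely mapped fragments were counted.

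Pck2, the mitochondrial phosphoenolpyruvate carboxykinase, lies on the plus strand at chr14:55540266-55551242 and makes phosphoenolpyruvate from oxaloacetate. Its counts rose at 10 µM, from 105.5, 95.1 and 101.1 CPM at 0 µM and 90.7, 96.8 and 86.7 CPM at 2 µM to 250.3 and 277.4 CPM. The untreated and 2 µM libraries overlapped, although the 2 µM mean was the lower of the 2. Its log2 fold change was 1.39 (SE 0.082), a fold of 2.63, between 10 and 0 µM, 1.53 (SE 0.082) between 10 and 2 µM, and -0.14 (SE 0.076) between 2 and 0 µM.

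The enzymes of glutamine and glutamate themselves were not called at any dose. Glul, the glutamine synthetase (chr1:153899944-153909723, plus strand), was at 37.3, 31.1 and 32.8 CPM at 0 µM, 32.6, 31.8 and 36.9 CPM at 2 µM, and 31.99 and 32.37 CPM at 10 µM. The 10 µM libraries lay within the range of both other doses, with a log2 fold change of -0.060 (SE 0.10) against 0 µM, -0.073 (SE 0.10) against 2 µM, and 0.013 (SE 0.092) between 2 and 0 µM. Glud1, the mitochondrial glutamate dehydrogenase (chr14:34310727-34345265, plus strand), was at 273.8, 259.3 and 291.4 CPM at 0 µM, 266.4, 272.8 and 292.2 CPM at 2 µM, and 263.8 and 263.4 CPM at 10 µM. The log2 fold change of Glud1 was -0.060 (SE 0.079) between 10 and 0 µM, -0.073 (SE 0.079) between 10 and 2 µM and 0.012 (SE 0.070) between 2 and 0 µM. Of the 75-base stretches of the transcripts, 7.91% in Glul and 5.82% in Glud1 also occur in other genes. These were most often Glns-ps1 and Teddm2 for Glul, and Gm43444 and Glud-ps for Glud1. The exons of Glul also overlap the antisense gene Teddm2 by 67 bp and, on the same strand, the microRNA gene Mir8114 by 93 bp.

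**Figure D2:**
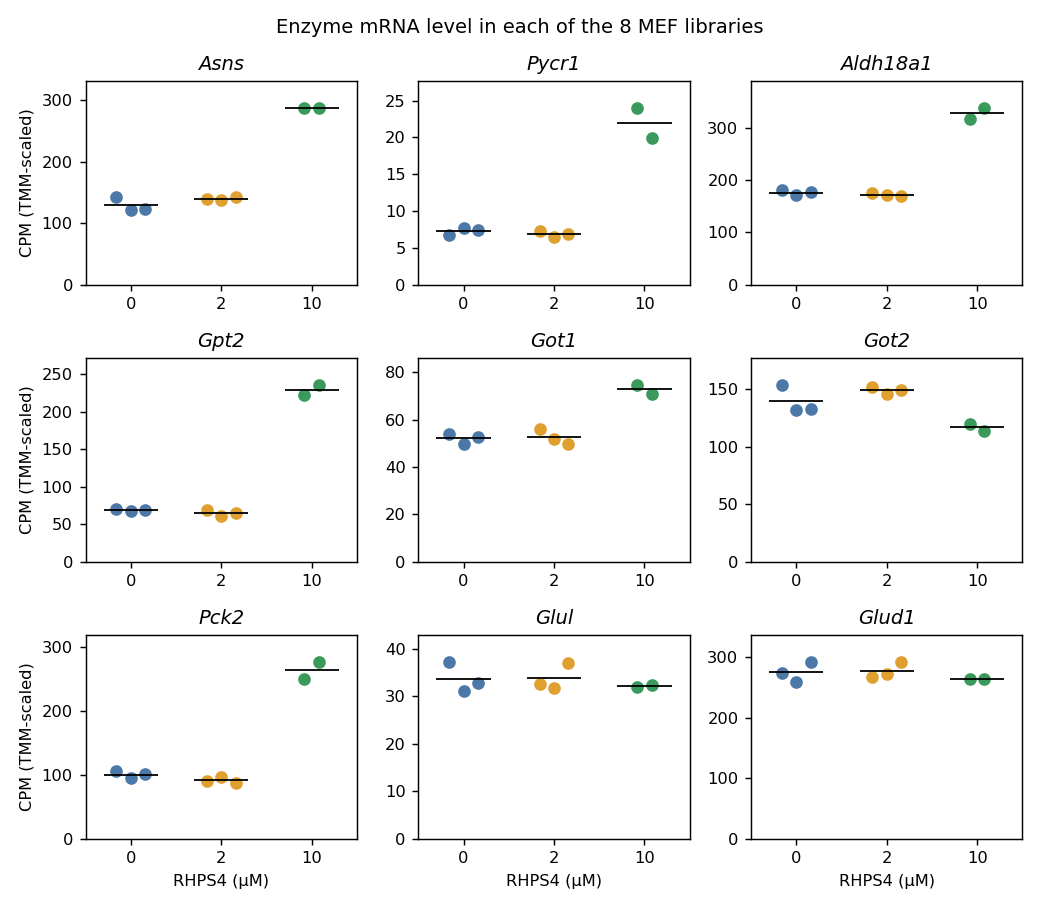
Level of each of the 9 enzyme mRNAs in the 8 libraries, in CPM (TMM-scaled) on the vertical axis of each panel, by RHPS4 dose in µM, where a point is a library and a line the mean of its dose. The 10 µM libraries lie above all others for Asns, Pycr1, Aldh18a1, Gpt2, Got1 and Pck2, below all others for Got2, and within their range for Glul and within or just below it for Glud1.

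With a DEG defined by an adjusted p under 0.01 (edgeR's quasi-likelihood test with Benjamini-Hochberg adjustment over all tested genes) and a fold change over 1.5, 5 of the 9 enzymes were called higher at 10 than at 0 µM (Asns, Gpt2, Pck2, Pycr1 and Aldh18a1) and 0 were called lower. Of all tested genes, 1.95% were called higher and 1.14% lower in this comparison. The same 5 were called higher at 10 than at 2 µM and 0 lower, where 3.92% of all genes were called higher and 1.59% lower. Both comparisons share the 10 µM libraries. Between 2 and 0 µM 0 of the 9 were called by edgeR or by DESeq2, and 0 had an unadjusted p under 0.05, against 21.3% of all genes. In that comparison, 0.119% of all genes were called higher and 0.378% lower. Because the group was selected on these counts, nothing is read from its share of calls beside that of all genes. Of the 6 mitochondrial enzymes 4 were among the calls, and of the 3 cytosolic ones only Asns. The cytosolic Got1 missed only the minimum fold, with an adjusted p of 0.00296 by edgeR and a fold of 1.40 between 10 and 0 µM. No difference between the compartments is therefore read from the calls.

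The median log2 fold change over the 9 enzymes was 0.90 between 10 and 0 µM, 0.93 between 10 and 2 µM and 0.012 between 2 and 0 µM, against 0.016, 0.026 and -0.011 over all tested genes. Ordered by log2 fold change between 10 and 0 µM among the 14296 genes, Gpt2 was at place 32, Pycr1 at 49, Pck2 at 89, Asns at 181 and Aldh18a1 at 406. Got1 followed at place 1561. Glul (8600), Glud1 (8617) and Got2 (11730) were in the lower part of that order. These medians and places describe genes chosen from the same counts and are no test of the group.

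Both 10 µM libraries were above every 0 µM library for 6 enzymes (the 5 calls and Got1), below every one for Got2, and overlapped with them for the other 2. Such a lack of overlap was found for 22.9% of all tested genes upwards and 20.0% downwards. Against 2 µM, 6 enzymes were above, Got2 and Glud1 below, and Glul overlapped, where 27.0% of all genes lay above and 24.9% below. Between 2 and 0 µM the libraries of all 9 enzymes overlapped, while 12.7% of all genes were separated upwards and 12.9% downwards. The mtDNA share of counts was lower at 2 µM as well, without overlap with 0 µM, a dose at which 0 of the 9 enzymes were called. Its part in the values at 10 µM was not tested.

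**Figure D3:**
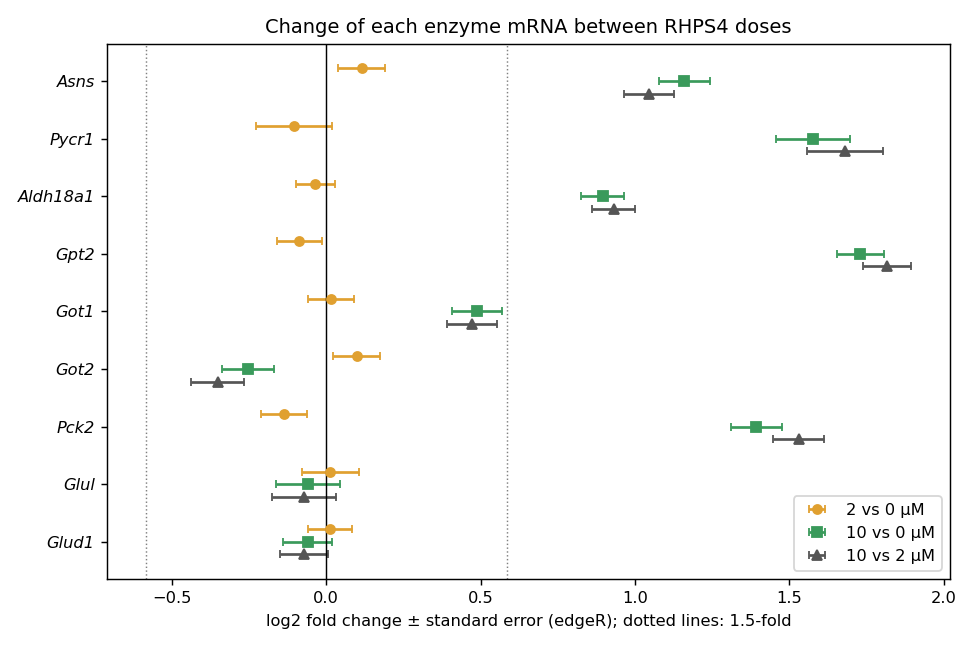
Log2 fold change (horizontal axis) of the 9 enzyme mRNAs between RHPS4 doses, with bars for the standard error of edgeR's fit and dotted lines at a fold of 1.5 in either direction. For 5 enzymes both comparisons with 10 µM lie beyond the upper line, Got1 lies just below it at 0.49 and 0.47, and the 2 against 0 µM values of all 9 lie between -0.14 and 0.11.

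Scaling mattered for the enzymes near no change. With total counts alone in place of TMM, the median of all tested genes moved to 0.23 between 10 and 0 µM and to 0.16 between 10 and 2 µM, and the genes called between 10 and 0 µM split into 846 higher and 68 lower, against 279 and 163 with TMM. The split moved to 923 higher and 84 lower between 10 and 2 µM (561 and 227 with TMM) and to 26 and 40 between 2 and 0 µM (17 and 54 with TMM). Between 10 and 0 µM the lower genes were the more numerous with DESeq2 (235 higher, 269 lower), without a filter on low counts (275 and 285), without the first 0 µM library (286 and 347) and without the first 10 µM library (160 and 170), and between 10 and 2 µM without the first 10 µM library (322 and 335). With total counts alone, Glul (0.16) and Glud1 (0.16) turned positive between 10 and 0 µM while staying below the median of all genes under that scaling, and Got1 passed the fold threshold at 0.70.

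Levels of different genes were compared per kilobase of exon. At 0 µM Glud1 was the highest at 81.1 ± 4.74 CPM per kb (SD, n = 3), followed by Asns at 59.7 ± 5.57, Got2 at 55.05 ± 4.94, Aldh18a1 at 50.01 ± 1.35, Got1 at 25.3 ± 1.04, Pck2 at 21.7 ± 1.13, Gpt2 at 19.0 ± 0.377, Glul at 12.1 ± 1.14 and Pycr1 at 1.94 ± 0.13. Among neighbours in this order, only the libraries of Asns and Got2 overlapped. The place of Got2 is less certain at every dose, since 35.2% of its 75-base stretches also occur in other genes. Only uniquely mapped fragments were counted, which can lower its level per kb. At 2 µM the order was the same, and the libraries of Pck2 (18.8 to 20.9 CPM per kb) and Gpt2 (16.7 to 19.0) overlapped. At 10 µM Asns led at 133 ± 0.164 CPM per kb (SD, n = 2), ahead of Aldh18a1 at 93.0 ± 4.47 and Glud1 at 77.8 ± 0.0834. Gpt2 at 63.0 ± 2.76 and Pck2 at 57.0 ± 4.14 were then above Got2 at 46.1 ± 1.84 and Got1 at 35.4 ± 1.30, while Glul at 11.5 ± 0.0962 and Pycr1 at 5.83 ± 0.788 remained the lowest. No neighbours overlapped at 10 µM, with 2 libraries each.

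Several of these reactions have a sister enzyme encoded by another gene, which gives a comparison within each library. Pycrl encodes a cytosolic pyrroline-5-carboxylate reductase. It was at 42.4, 37.7 and 37.8 CPM at 0 µM, 40.6, 43.9 and 40.4 CPM at 2 µM, and 31.4 and 36.0 CPM at 10 µM. Both 10 µM libraries were below all the others, and Pycrl was not called, with a log2 fold change of -0.22 (SE 0.096, adjusted p = 0.159 by edgeR) between 10 and 0 µM and -0.30 (SE 0.097, adjusted p = 0.0416) between 10 and 2 µM. At 0 µM its level per kb was 29.4 ± 1.98 CPM per kb (SD, n = 3), far above that of Pycr1. Within a library, the log2 ratio of Pycr1 to Pycrl counts was -2.64, -2.29 and -2.34 without RHPS4, and -2.48, -2.74 and -2.56 at 2 µM. In the 10 µM libraries it was -0.386 and -0.856. In counts, Pycr1 therefore stayed below Pycrl at 10 µM, with a ratio nearer to even than in any library of the lower doses. Counts do not allow for the longer exons of Pycr1 (3767 bp against 1339 bp). Per kb, Pycr1 remained far below Pycrl at 10 µM, at 5.83 ± 0.788 against 25.2 ± 2.39 CPM per kb (SD, n = 2).

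The log2 ratio of Got1 to Got2 counts was -1.51, -1.41 and -1.33 without RHPS4, and -1.43, -1.49 and -1.58 at 2 µM. In the 10 µM libraries it was -0.680 and -0.674. Both 10 µM libraries lay outside the range of the others. The level of this ratio is less certain, since part of the Got2 sequence also occurs in other genes. Gpt, which encodes the cytosolic alanine transaminase, was at 2.49 to 3.93 CPM at 0 µM, 3.21 to 4.32 CPM at 2 µM and 3.31 to 3.48 CPM at 10 µM and was not called. The log2 ratio of Gpt2 to Gpt counts was 4.38 ± 0.367 (SD, n = 3) at 0 µM, 4.14 ± 0.293 (n = 3) at 2 µM and 6.06 ± 0.113 (n = 2) at 10 µM.

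Pck1, which encodes the cytosolic phosphoenolpyruvate carboxykinase, had only 4 to 20 counts per library. Its log2 fold change between 10 and 0 µM was 1.33 (SE 0.39) with an adjusted p of 0.0434 by edgeR, so it was not called, and both of its 10 µM libraries (1.22 and 1.37 CPM) were above all the others. The log2 ratio of Pck2 to Pck1 counts was 7.60 ± 0.476 (SD, n = 3) at 0 µM, 7.17 ± 0.772 (n = 3) at 2 µM and 7.64 ± 0.00707 (n = 2) at 10 µM. The 10 µM values lay inside the range of the untreated libraries and inside that at 2 µM (6.56 to 8.04). With so few Pck1 counts this ratio is imprecise, and the small SD at 10 µM rests on 2 libraries. Aldh4a1, which runs the opposite way to Aldh18a1 by oxidizing pyrroline-5-carboxylate to glutamate, had a log2 fold change of 0.047 (SE 0.098) between 10 and 0 µM. The log2 ratio of Aldh18a1 to Aldh4a1 counts was 3.65 ± 0.0473 (SD, n = 3) at 0 µM, 3.56 ± 0.0839 (n = 3) at 2 µM and 4.50 ± 0.134 (n = 2) at 10 µM. The log2 ratio of Asns to Glul counts, the glutamine user against the glutamine maker, ran from 1.91 to 1.95 at 0 µM, from 1.94 to 2.11 at 2 µM and from 3.15 to 3.17 at 10 µM. These ratios rest on the same counts that the genes were chosen from and were not tested.

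**Figure D4:**
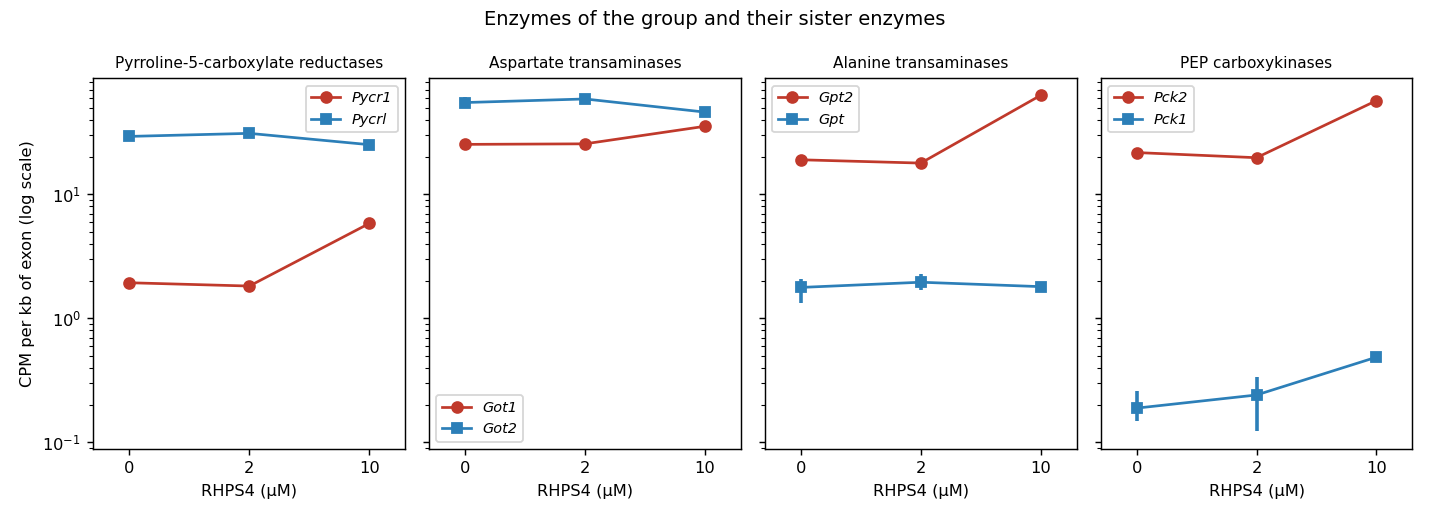
Mean level of enzymes and their sister enzymes in CPM per kb of exon (vertical axis, log scale) by RHPS4 dose in µM, where vertical bars span the lowest to the highest library and are hidden where they are shorter than the marker. Pycr1 nears Pycrl from below at 10 µM, Got1 nears Got2, Gpt2 draws away from Gpt, and both Pck2 and Pck1 have their highest mean at 10 µM.

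Other genes of these pathways were taken as a list of 62 enzymes and carriers, of which 49 were tested. Between 10 and 0 µM 0 of the 49 were called by edgeR or by DESeq2, 14 had an unadjusted p under 0.05 (29.4% of all tested genes did), and the median log2 fold change was -0.021 in a range from -0.97 to 1.33. Between 2 and 0 µM 0 were called by either tool, 13 had an unadjusted p under 0.05 (21.3% of all genes did), and the median was 0.060. Between 10 and 2 µM 1 was called higher and 1 lower by both tools, 22 had an unadjusted p under 0.05 (36.5% of all genes did), and the median was -0.010. These shares can be read against the percentages of all genes called that are given above.

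By role, 9 tested genes of aspartate and asparagine use had a median log2 fold change of -0.037 between 10 and 0 µM, 7 other transaminases one of 0.21, and 15 genes of glutamine and glutamate use one of -0.021. The median of 6 genes of proline and ornithine turnover was -0.16, that of 5 mitochondrial amino acid carriers was -0.097, and that of 7 phosphoenolpyruvate and malate enzymes was -0.34. In each role group 0 genes were called between 10 and 0 µM, where 1.95% of all tested genes were called higher and 1.14% lower. At such shares, groups of 5 to 15 genes can hold no call, so nothing is read from these counts of 0.

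The 2 calls between 10 and 2 µM were both genes of glutamine and glutamate use. Ppat, which uses glutamine in the first committed step of purine synthesis, was at 119.4, 116.1 and 111.1 CPM at 2 µM and fell to 70.1 and 83.0 CPM at 10 µM, with 0 µM libraries between these at 106.4, 87.6 and 90.9 CPM. Its log2 fold change between 10 and 2 µM was -0.59 (SE 0.10, adjusted p = 0.00238 by edgeR), and between 10 and 0 µM it was -0.31 (SE 0.10, adjusted p = 0.0701). Aldh5a1, a mitochondrial dehydrogenase that ends the breakdown of the glutamate product GABA, rose from 12.2, 12.9 and 13.6 CPM at 2 µM to 22.5 and 17.8 CPM at 10 µM, with 15.5, 17.4 and 15.4 CPM at 0 µM. For Aldh5a1 the log2 fold change was 0.65 (SE 0.12, adjusted p = 0.00373 by edgeR) between 10 and 2 µM and 0.33 (SE 0.12, adjusted p = 0.0902) between 10 and 0 µM. Both genes had their untreated libraries between the other doses, and both calls were lost when the first 2 µM library, the second 2 µM library or the first 10 µM library was left out.

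The enzymes of the group were also compared with one another and with all other nuclear genes by the Pearson correlation of log2 CPM over the 8 libraries. These points share 3 dose groups, so that any genes that differ between 10 µM and the other doses correlate, and the values are a description. Between the 5 called enzymes and Got1, r ran from 0.958 (Pck2 and Got1) to 0.998 (Gpt2 and Aldh18a1). Got2 correlated with these 6 at r between -0.869 and -0.745, Glul between -0.351 and -0.187, and Glud1 between -0.484 and -0.421. Glul and Glud1 had an r of 0.581 with each other.

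The genes with the most similar pattern to Asns were Chac1 (r = 0.9954), which encodes a glutathione-degrading enzyme, Psph (0.9941), which makes serine, and Arl14ep (0.9928). For Gpt2 they were Aldh18a1 (0.9976), the cystine transporter Slc7a11 (0.9974) and Otub2 (0.9968), and for Aldh18a1 they were Gpt2 (0.9976), Pck2 (0.9964) and Flot1 (0.9953). The nearest genes to Pck2 were Aldh18a1 (0.9964), the endoplasmic reticulum stress gene Herpud1 (0.9963) and Aldh1l2 (0.9962), a mitochondrial folate enzyme. Pycr1 was closest to Slc7a11 (0.994), Cnppd1 (0.9886) and Gpt2 (0.9881). Members of the group were among the 3 nearest genes of Gpt2, Pck2, Pycr1 and Aldh18a1. Because the group was chosen from these same counts, nothing is read from that closeness.

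Got1 was closest to Rab2b (0.9936), the asparaginyl-tRNA synthetase Nars (0.9895) and Ctage5 (0.989). The nearest genes to Got2 were Wsb2 (0.9944), Exoc3l4 (0.993) and Slc25a44 (0.9927). For Glul the nearest were Srd5a3 (0.9442), Faah (0.9269) and Scml2 (0.9236), and for Glud1 they were Pkd2l1 (0.8801), Mospd3 (0.8725) and B4galt6 (0.8591), the lowest values of the 9.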

How the data were processed

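Ribosomal RNA was depleted from total RNA of MEF cells and stranded libraries were sequenced. The authors trimmed the reads, aligned them to mm10 with STAR 2.5.2a (the version per the submitters' processing notes) and deposited counts per gene from featureCounts, as whole numbers without normalization. The gene annotation and strand setting are not given in the sources used here.

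The 8 libraries entered a single fit by dose in edgeR 4.0.16 (R 4.3.3), with TMM factors, filterByExpr and the quasi-likelihood test (glmQLFit, glmQLFTest). A gene was called a DEG when its Benjamini-Hochberg adjusted p was below 0.01 and its fold change above 1.5. SEs are the absolute log2 fold change over the square root of F. CPM is scaled by TMM, and within-library ratios used 0.5 added to each count. No libraries were duplicates. A floor of 3 counts per library was taken as the limit of detection, which covers counting error only. The scripts were tested on simulated data.

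Exon lengths and positions came from GENCODE M21 (GRCm38), which may differ from the authors' annotation, and promoters from RefSeq (GRCm38.p6). Named genes were the 9 enzymes, the 3 tested nuclear genes most correlated with each (log2 CPM, prior count 2), and the other enzymes called in any comparison. The sister enzymes compared within libraries were added to these. Some results for the other enzymes are not reported here. The enzymes and lists were chosen with earlier results of these data known. Alternatives changed the scaling (RLE, TMM over nuclear genes, total counts), the filter (none, or 10 counts in every library), the tool (DESeq2 1.42.0), the minimum fold (none) and the libraries fitted (the compared doses alone, or each library left out), or added a replicate block.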

Additional observations from a re-analysis of the deposited data

How the results depend on the processing

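The calls of Asns, Gpt2, Pck2, Pycr1 and Aldh18a1 at 10 µM were kept against both other doses in every alternative run. The number of enzymes of the group called there was 5 in each, or 6 with total counts only or with no minimum fold, and 0 between 2 and 0 µM. All tested DEGs numbered 71 between 2 and 0 µM (DESeq2 109, no minimum fold 107, 6 to 144 when each library was left out), 442 between 10 and 0 µM (total counts 914, no minimum fold 747, 235 to 633 without a library) and 788 between 10 and 2 µM (no minimum fold 1539, 444 to 884 without a library). The lowest of these ranges came without the second 2 µM, the second 10 µM and the second 10 µM library, and the highest without the first 0 µM library. Leaving out any 0 or 2 µM library moved the count between these doses by over 1.5 times. So did leaving out the second or the third 0 µM library between 10 and 0 µM (266 and 293) and the second 2 µM library between 10 and 2 µM (515). Of the other enzymes, total counts called 1 between 10 and 0 µM, and between 10 and 2 µM the 2 calls became 9 with no minimum fold, 1 with the replicate block and 0 to 2 without a library. With total counts Got1 was called at 0.70 and 0.61 between 10 µM and 0 or 2 µM, and the log2 fold changes near zero turned sign: Glul 0.16 and Glud1 0.16 between 10 and 0 µM, both 0.063 between 10 and 2 µM, and Aldh18a1 0.047 between 2 and 0 µM. Without a library the 2 against 0 µM values of Got1 (-0.034 to 0.061), Glul (-0.053 to 0.090) and Glud1 (-0.023 to 0.057) also changed sign, and Got2 between 10 and 0 µM went from -0.25 to -0.036 with total counts.

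Deviations of same-numbered libraries correlated at 0.199, 0.0852 and 0.161 between 0 and 2 µM and at -0.146 to -0.022 with 10 µM. Not every pair was over 0.1, so the number was not used as a pairing, although between 0 and 2 µM each library correlated best with its own number, a hint from the data and not the design. The replicate block gave 54, 322 and 735 DEGs in the order above and left the calls of the 9 enzymes as they were. Pycr1, at 65 counts in its lowest library, has the least depth of the 9.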
